A study of Mus musculus with 4 samples.

Results

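Socs3, Klf4, Tfcp2l1, Esrrb and Zfp42 are transcripts of the leukemia inhibitory factor (LIF) response and of the naive state of mouse embryonic stem cells, and all 5 carried eCLIP peaks of eIF4A2. They held 49 of the 47777 peaks of the deposited list, namely 15 on Socs3, 8 on Klf4, 3 on Tfcp2l1, 18 on Esrrb and 5 on Zfp42. The peaks were defined by a midpoint in a fixed mm9 window on the strand of the gene. The windows ran from 117826000 to 117832000 on chromosome 11 (Socs3), from 55539000 to 55547000 on chromosome 4 (Klf4) and from 120523000 to 120583000 on chromosome 1 (Tfcp2l1). Those of Esrrb and Zfp42 ran from 87700000 to 87864000 on chromosome 12 and from 44378000 to 44395000 on chromosome 8. The 5 genes were chosen from this same list with its peak positions and folds in view. Their counts and folds are therefore a description, and no test was made on them.

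eIF4A2 belongs to the DEAD-box RNA helicases and is closely related to eIF4A1, which unwinds mRNA when translation starts. The eCLIP method crosslinks proteins to bound RNA in intact cells by ultraviolet light, recovers 1 protein with an antibody and sequences the RNA that comes with it. The 2 groups were IP libraries, made with an anti-eIF4A2 antibody, and input libraries from the same kind of cells without that antibody, with 2 biological replicates in each. All 4 libraries came from 1 line, J1 (strain 129S4/SvJae), which was UV crosslinked and carried no other treatment in the labels. The cells grew without feeders in medium with serum and LIF, so LIF signalling was supplied in both groups and no LIF-free condition was compared. The list gives 1 log2 fold of IP over input per peak, calculated by the authors, and no value per library. Neither replicate spread nor sequencing depth is known, so no fold below has an error. A fold of IP over input is not an RNA level, and the stem cell identity of the cultures was not checked from this list.

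LIF binds a receptor that holds gp130 and activates JAK kinases, which phosphorylate STAT3. STAT3 enters the nucleus and raises transcription of Socs3, whose protein binds the receptor and JAK and closes a negative feedback loop. Klf4 and Tfcp2l1 encode transcription factors that are induced by STAT3 and help to hold embryonic stem cells in self-renewal. Esrrb encodes an orphan nuclear receptor of the same network, whose transcription is derepressed when GSK3 is inhibited. Zfp42, also called Rex1, encodes a zinc finger protein that is widely used as a marker of the naive state. Other genes of the pathway, among them Lif, Lifr, Il6st, Jak1, Stat3 and Klf2, were not placed on the list, because no mm9 annotation was used here. For the same reason peaks could not be assigned to exons, introns or untranslated regions, and no peak sequence is printed.

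The windows fit the genes in strand and size, but their positions were not checked against an mm9 annotation. Chromosome and strand were those of the GENCODE M21 gene models (GRCm38, a later build, of which lengths only were used). Each window was 2031 to 5082 bases longer than the gene span in that annotation. None of the 5 windows held a peak on the opposite strand. The nearest peak outside a window on the same strand was 39.3 kb from the Tfcp2l1 peaks, and for the other genes it was 140.8 kb (Socs3), 157.5 kb (Esrrb), 165.3 kb (Zfp42) and 1223 kb (Klf4) away. The peaks just outside had log2 folds of 1.34 and 1.41 around Socs3, 2.24 and 1.17 around Klf4, and 1.82 and 1.42 around Tfcp2l1. Around Esrrb they had 2.41 and 2.82, and around Zfp42 they had 1.05 and 2.24. In each of these pairs the peak at the lower coordinate comes first. For Esrrb and Tfcp2l1 both outside peaks were above every peak of the gene. For Klf4 and Zfp42 only the outside peak with 2.24 was, and for Socs3 neither was.

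Socs3 differed from the other 4 transcripts in the strength of its peaks. The median log2 fold of its 15 peaks was 3.01, or 8.06-fold, with quartiles of 2.33 and 3.31 and a range from 1.32 to 3.65. Over the whole list the median was 1.65, with quartiles of 1.29 and 2.07. On Socs3, 12 of the 15 peaks had a log2 fold of 2 (4-fold) or more, as did 28.3% of all peaks. At 3 (8-fold) or more there were 8 of the 15, and 4.03% of all peaks. None of the 34 peaks on Klf4, Tfcp2l1, Esrrb and Zfp42 reached a log2 fold of 2, and the highest of them had 1.75. On Socs3, 14 of 15 peaks lay above that value, while the ranges of the other 4 transcripts overlapped each other. Since the same folds were in view when the genes were picked, nothing is read from these shares.

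**Figure D1:**
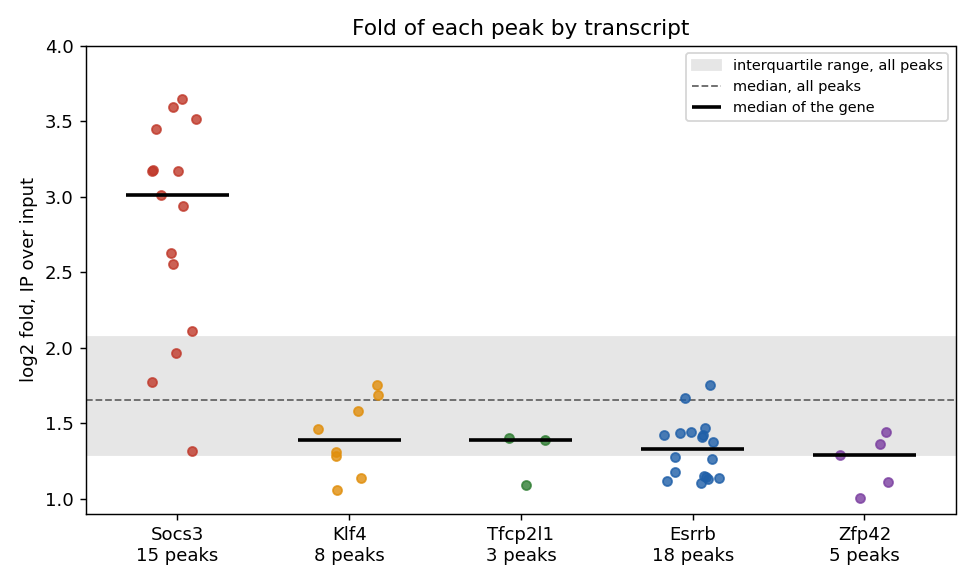
Log2 fold of IP over input (vertical axis) of each of the 49 peaks, by transcript. Each point is 1 peak of the list, black bars are medians of the gene, and the grey band and dashed line are the interquartile range and median of all 47777 peaks. Points on 1 transcript are not replicates. Socs3 has 14 of 15 peaks above the dashed line, whereas Klf4 and Esrrb have 2 each and Tfcp2l1 and Zfp42 have 0.

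The Socs3 peaks lay on the minus strand of chromosome 11 between 117827769 and 117830454, and no neighbouring pair was more than 454 bases apart. They covered 599 bases, or 22.3% of the 2686 bases between the outermost ones. The strongest was 16 bases wide, at 117829764 to 117829779, and had a log2 fold of 3.65 (12.5-fold). A peak of 48 bases at 117829780 to 117829827 touched it end to end and had a log2 fold of 3.52. The pair next to these on the 3′ side also touched, with 3.17 at 117829648 to 117829700 and 2.55 at 117829590 to 117829647. These 4 peaks formed a block of enrichment that began 627 bases from the 5′ edge of the first peak.

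A second block lay near the 3′ end of the Socs3 peaks. It held 5 peaks from 117827906 to 117828374, whose log2 folds from 5′ to 3′ were 3.17, 2.63, 3.17, 3.60 and 2.94. The fourth of these, at 117828007 to 117828024, was the second strongest on Socs3 (12.1-fold) and 18 bases wide. The last, at 117827906 to 117827973, was the widest on the transcript at 68 bases. Spacing does not set the 3′ edge of this block. The next peak, with 2.11, lay 126 bases away, while a gap inside the block was 133 bases. Between both blocks enrichment was uneven. A log2 fold of 1.96 at 117829098 to 117829135 was followed by 3.45 at 117828812 to 117828864 and by 1.32, the lowest on Socs3, at 117828538 to 117828565. The outermost peaks were among the weakest, with 1.77 at the 5′ end (117830432 to 117830454) and 2.11 at the 3′ end (117827769 to 117827779). The peak after the 5′-most one, at 117830129 to 117830169, had a log2 fold of 3.01.

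**Figure D2:**
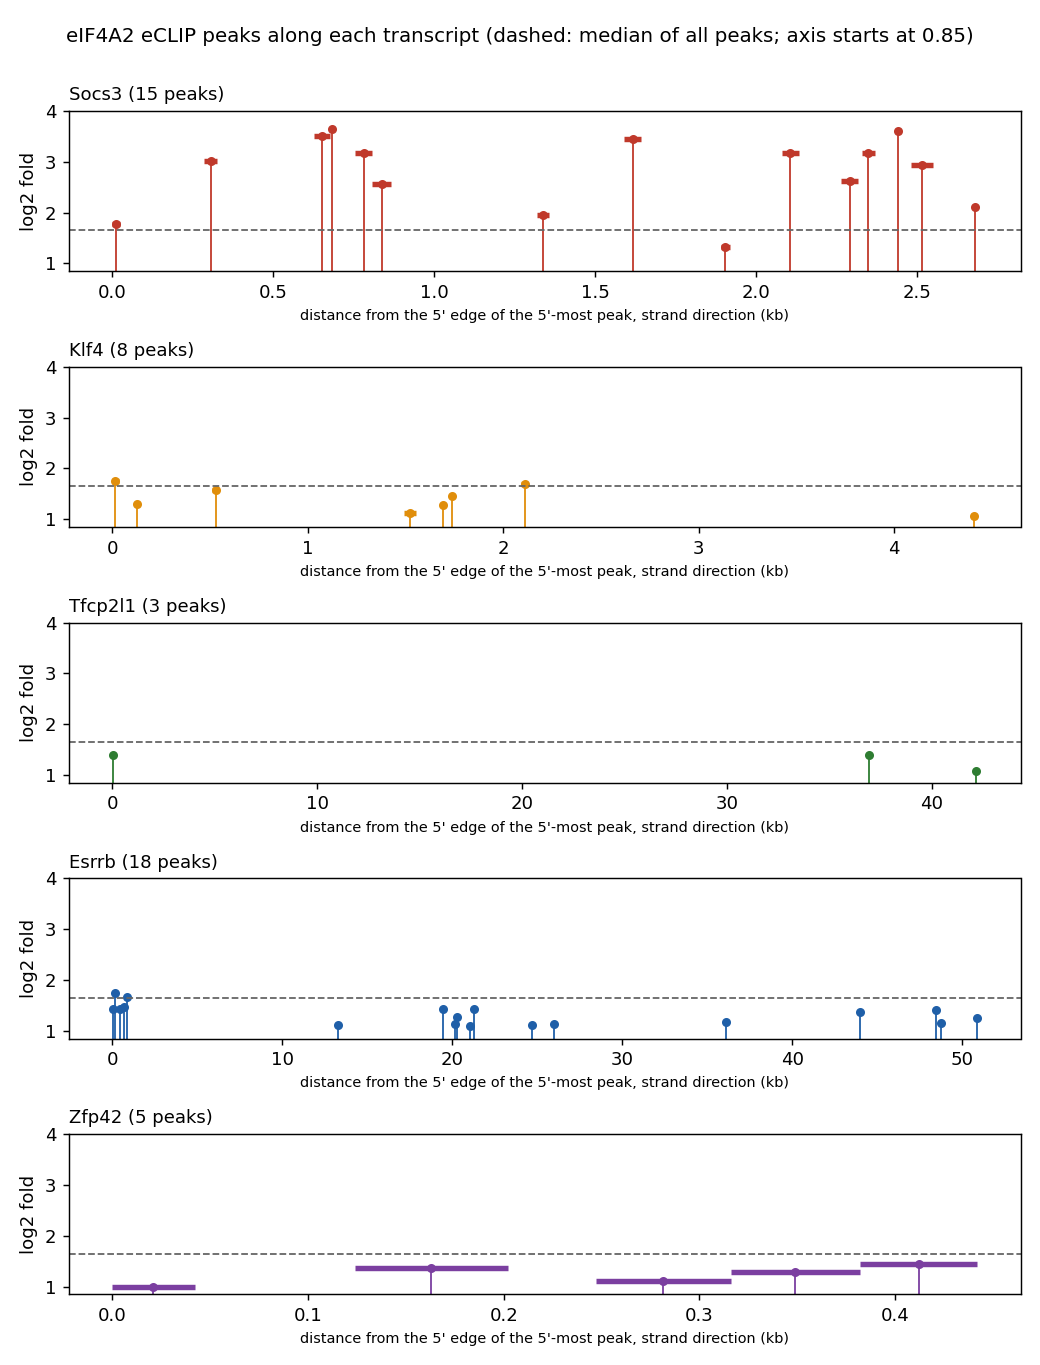
Peaks along the 5 transcripts. The horizontal axis is the distance in kb from the 5′ edge of the 5′-most peak, in the direction of the strand and on a different scale in each panel, and the vertical axis is the log2 fold of IP over input. Points are peak midpoints, thick lines show peak widths, and the dashed line is the median of all peaks. Socs3 holds 15 peaks within 2.69 kb, Klf4 8 within 4.43 kb, Esrrb 18 over 50.9 kb, Tfcp2l1 3 over 42.2 kb and Zfp42 5 within 0.442 kb.

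Set beside stretches with as many peaks, that on Socs3 had a high fold and an ordinary density. Peaks on one strand were joined into a stretch where each lay within 1000 bases of the one before, which gave 31595 stretches in the list. The Socs3 peaks formed 1 stretch, and 13 stretches held exactly 15 peaks. No other stretch of the 13 had a median log2 fold as high as 3.01, and their middle value was 2.10. Peaks covered 22.3% of the Socs3 stretch, against a median of 23.5% over the 13. As the genes were chosen with folds and positions in view, this place among stretches is a description only. The same holds for the stretches of Klf4, Esrrb and Zfp42 below.

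Klf4, by contrast, held a moderate number of weak peaks. Its 8 peaks had a median log2 fold of 1.39 (2.61-fold), quartiles of 1.24 and 1.61, and a range from 1.06 to 1.75. They lay on the minus strand of chromosome 4 and covered 257 bases. From 5′ to 3′, the first peak was at 55545292 to 55545323 and was the strongest, with a log2 fold of 1.75. The next, at 55545185 to 55545209, had 1.31, and the third, at 55544780 to 55544811, had 1.58. A gap of 950 bases separated these 3 from a group of 4.

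The group of 4 on Klf4 opened with a log2 fold of 1.13 at 55543773 to 55543829, the widest Klf4 peak at 57 bases. It was followed by 1.28 at 55543621 to 55543644 and by 1.46 at 55543579 to 55543597. It ended with 1.68 at 55543197 to 55543232, which is the second highest on the transcript. A single peak at 55540899 to 55540930 lay 2266 bases further 3′ and had the lowest log2 fold, 1.06. Of the 8 Klf4 peaks, the first and the seventh were above the median of the list. The first 7 formed 1 stretch with a median of 1.46, and among the 127 stretches of 7 peaks the middle value was 1.82. It was also sparse, since peaks covered 10.6% of its 2127 bases, against a median coverage of 26.4% over the 127, of which 111 (itself included) were covered at least as much.

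Tfcp2l1 carried the fewest peaks, 3, although its gene span is 57.2 kb and its transcript, at 9269 bases, is the longest of the 5. Chromosome 1 carried them on its plus strand, far apart from each other. The first, at 120524558 to 120524623, was 66 bases wide with a log2 fold of 1.40 (2.64-fold). The second, at 120561476 to 120561483, was 36852 bases downstream and 8 bases wide, with 1.39. The third, at 120566686 to 120566767, was the widest peak of all 49 at 82 bases, with 1.09. All 3 were below the list median, and none had another peak within 1000 bases. The first lay 1558 bases inside the 5′ edge of the window, and the last 16233 bases were free of peaks.

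Esrrb had the most peaks but its enrichment was low throughout. The 18 peaks had a median log2 fold of 1.33 (2.51-fold), quartiles of 1.14 and 1.43, and a range from 1.10 to 1.75, and they covered 737 bases. All lay on the plus strand of chromosome 12 between 87811275 and 87862153. The first 111275 bases of the 164 kb window held none. They fell into 9 stretches, of which 2 held 5 peaks each, 1 held 2 and the others held 1.

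The 5′-most stretch on Esrrb held its strongest peaks. Within 897 bases, from 87811275 to 87812171, the log2 folds from 5′ to 3′ were 1.44, 1.75, 1.42, 1.47 and 1.67. The peak with 1.75 covered 87811399 to 87811458, and the one with 1.67 covered 87812144 to 87812171. These were the only Esrrb peaks above the list median. The other stretch of 5, from 87830723 to 87832546, had 1.42, 1.14, 1.28, 1.10 and 1.43. Of these, 1.10 at 87832320 to 87832338 was the lowest value on Esrrb.

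The remaining 8 Esrrb peaks had log2 folds between 1.12 and 1.41. Between both stretches of 5 lay 1 peak, at 87824550 to 87824606, with 1.12. Downstream, a peak of 80 bases at 87835918 to 87835997, the widest on Esrrb, had 1.13. It was followed by 1.14 at 87837256 to 87837308, by 1.17 at 87847335 to 87847384 and by 1.38 at 87855248 to 87855255. A pair at 87859728 to 87859740 and 87859978 to 87860025 had 1.41 and 1.15. The 3′-most peak, at 87862106 to 87862153, had 1.26. Distances between neighbours on this transcript ranged from 67 to 12378 bases.

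Zfp42 showed the reverse arrangement, with all of its peaks packed side by side. Its 5 peaks lay on the minus strand of chromosome 8 within 442 bases, although the gene span is 11.9 kb, and they covered 315 bases, or 71.3% of that stretch. Their median log2 fold was 1.29 (2.44-fold), the lowest median of the 5 transcripts. From 5′ to 3′, the peaks were at 44381598 to 44381639 with 1.00, at 44381438 to 44381515 with 1.36 and at 44381324 to 44381392 with 1.11. Then came 44381258 to 44381323 with 1.29 and 44381198 to 44381257 with 1.44. The last 3 touched end to end, and their folds increased toward the 3′ side. The 5′-most peak, at 2.004-fold, was just above the limit of 2-fold below which the list holds no peak.

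Among stretches of the same number of peaks, that on Zfp42 was dense and weak. Of the 385 stretches with 5 peaks, 21 (itself included) were covered to at least 71.3%, and the median coverage was 20.5%. The median log2 fold was as high as that of Zfp42 or higher in 352 of the 385. The first Esrrb stretch of 5 peaks was covered to 24.1% and the other to 8.99%, with medians of 1.47 and 1.28. Over the 385 the middle value of the median was 1.73, above all 3 of these. Such places among stretches are a description, since the genes were chosen with these values in view.

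**Figure D3:**
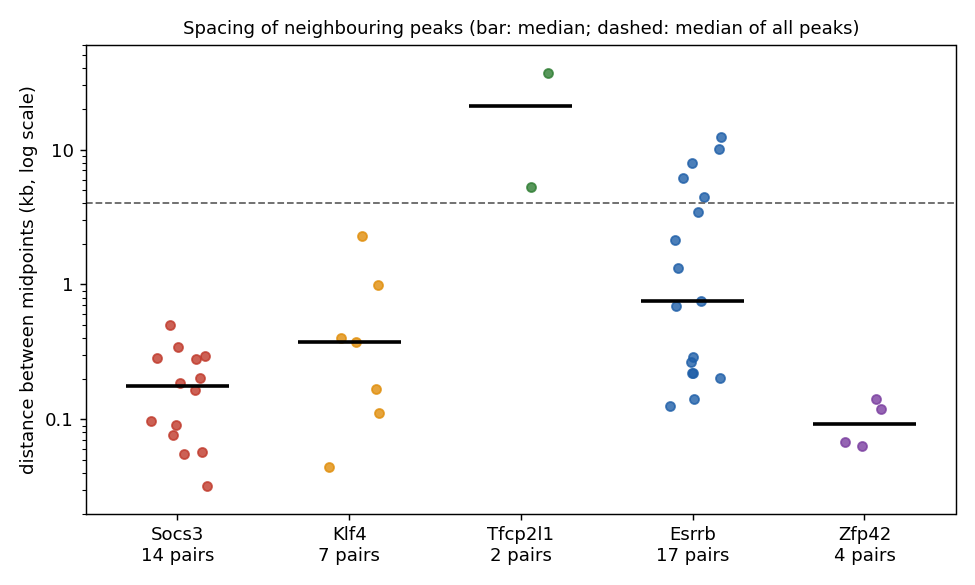
Distance between the midpoints of neighbouring peaks on each transcript, in kb on a log scale. Each point is 1 neighbouring pair, bars are medians, and the dashed line is the median of neighbours on 1 strand over the whole list (4.02 kb). All pairs on Socs3, Klf4 and Zfp42 lie below the dashed line, both pairs on Tfcp2l1 lie above it, and Esrrb has pairs on either side. Small windows hold close neighbours by construction, so the place of the pairs relative to the line is a description only.

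A neighbour within 1000 bases followed in 14 of 14 pairs on Socs3, 6 of 7 on Klf4, 9 of 17 on Esrrb and 4 of 4 on Zfp42, but in 0 of 2 on Tfcp2l1. Over the whole list it was 33.9% of neighbouring pairs. Peaks that touched end to end, with no base between them, were found only on Socs3 and Zfp42 among the 5, with 2 pairs on each. They made up 4 of the 44 neighbouring pairs, or 9.09%, against 1834 pairs, or 3.84%, over the whole list. Windows of limited size select close neighbours, so neither share can be set against that of the list as a result.

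By median width the transcripts came in another order than by median log2 fold. In fold only Socs3 stood apart, with 3.01 against 1.29 to 1.39 on the others. The 49 peaks were 8 to 82 bases wide with a median of 41, against 32 over the whole list. The gene medians were 66 bases on Zfp42 and Tfcp2l1, 44 on Esrrb, 41 on Socs3 and 32 on Klf4. That of Tfcp2l1 is the middle of only 3 peaks, of 8, 66 and 82 bases. Every Zfp42 peak was at least 42 bases wide, and their log2 folds were all at or below 1.44. The strongest pair of Socs3 peaks, at 16 and 18 bases, was narrower than any Zfp42 peak.

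**Figure D4:**
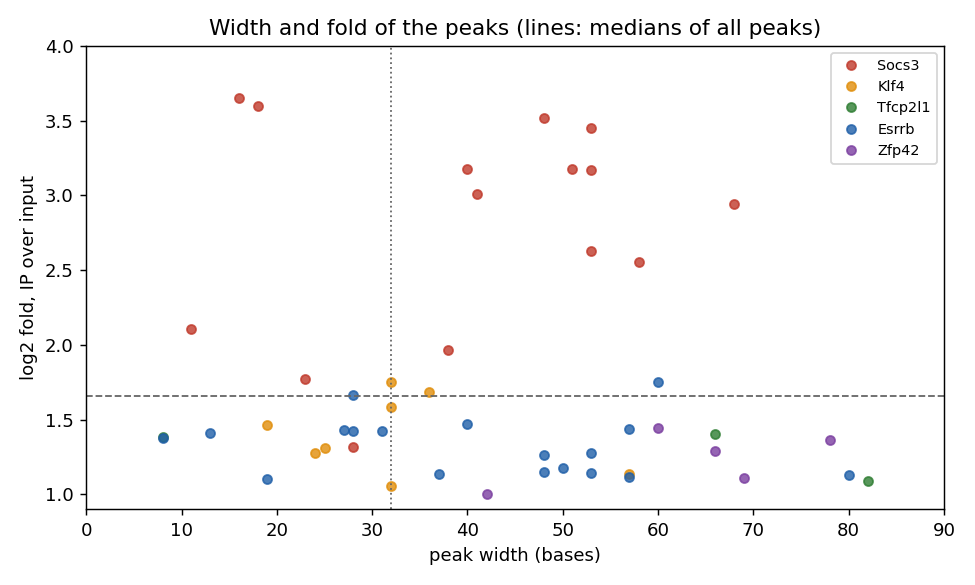
Peak width in bases (horizontal axis) and log2 fold of IP over input (vertical axis) of the 49 peaks, coloured by transcript. Each point is 1 peak, and the dotted and dashed lines are the median width (32 bases) and median log2 fold (1.65) of all peaks. Socs3 peaks with a log2 fold above 2 span widths of 11 to 68 bases, and Zfp42 peaks lie at 42 to 78 bases with log2 folds of 1.00 to 1.44.

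The 5 genes differ widely in length and exon number. The windows follow the gene spans, so span entered the choice of peaks, while exon number and transcript length did not. In GENCODE M21, Socs3 spans 3.97 kb with 2 exons and a transcript of 2552 bases, of which 675 are coding. Klf4 spans 5.32 kb with 5 exons and a transcript of 3029 bases. Esrrb spans 160.5 kb with 7 exons, but its transcript has 4196 bases, and Zfp42 spans 11.9 kb with 5 exons and 1837 bases. Tfcp2l1 has 15 exons, and 7737 of its 9269 bases are 3′ untranslated. The distance between the outermost peaks was 67.7% of the gene span on Socs3, 83.1% on Klf4, 73.8% on Tfcp2l1, 31.7% on Esrrb and 3.71% on Zfp42. Per kb of gene span, Socs3 had 3.78 peaks, Klf4 1.503, Zfp42 0.420, Esrrb 0.112 and Tfcp2l1 0.0524. A short span raises this density by construction. Gene span includes introns, and spliced and unspliced RNA could not be told apart in these counts.

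Base composition was not uniform among the 5. The 5′ untranslated regions had a GC content of 70.5% on Socs3, 62.4% on Klf4, 71.6% on Tfcp2l1 and 71.2% on Esrrb, but 50.1% on Zfp42. Over 21747 protein-coding genes, with 1 transcript each, the median was 60% among those with an annotated 5′ untranslated region. The coding regions of Klf4 (63.1%) and Socs3 (61.8%) were richer in GC than those of Esrrb (58.3%), Tfcp2l1 (53.2%) and Zfp42 (52.9%). All 5 were above the median of 51.8%. The 3′ untranslated region had 54.2% on Socs3, 53.6% on Esrrb, 45.5% on Tfcp2l1, 37.5% on Klf4 and 33.0% on Zfp42. Over the genes with an annotated 3′ untranslated region the median was 42.7%.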

How the data were processed

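eIF4A2 eCLIP was done in J1 mouse embryonic stem cells (2 IP and 2 input libraries). The genome build was mm9 and the tools included STAR 2.6.1b and cutadapt 1.18, per the submitters' processing notes. How peaks were called, filtered for significance and combined over replicates is not stated in these sources. In the deposited list there is 1 log2 fold of IP over input per peak, calculated by the authors, and no value was at or below 1. The log2 scale was read from the values. The list gives no counts, so depth is unknown and no test was possible.

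Starts were changed to count from 1. Peaks with their midpoint in the mm9 window and on the strand of the gene were taken as members. All were named, with the first peak outside each window. Members and lists were chosen with earlier results of these data known. Stretches join peaks within 1000 bases. Gene spans came from GENCODE M21 (GRCm38) and are those of the whole gene. Exon numbers, transcript lengths and GC content came from 1 principal transcript per gene in the same annotation. No coordinates were converted. Counting was tested on simulated data. Alternatives are given in the closing section. Python 3.11.15, numpy 2.4.6, pandas 2.3.3 and matplotlib 3.10.9 were used.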

Additional observations from a re-analysis of the deposited data

How the results depend on the processing

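Of 100 alternative values (numbers of peaks, median folds and covered bases of the 5 transcripts), 76 stayed within 1.5 times the reported count or 0.2 of the reported median on the log2 scale. These include all values with a minimum width of 20 bases and with a mean weighted by width. Also included are all values with any shared base in place of the midpoint. The same goes for windows 1000 bases wider or 500 bases narrower on each side. Such changes of the window rule, with 15 values each, could not alter a result. Every outermost peak lay at least 1546 bases inside its window, and the nearest same-strand peak outside was 39.3 kb or more away. At a log2 fold of at least 3, Socs3 kept 8 peaks and 320 bases. Klf4, Tfcp2l1, Esrrb and Zfp42 had 0 peaks and 0 covered bases at a log2 fold of at least 2 and of at least 3. Peaks on the opposite strand numbered 0 in all 5 windows. Merging peaks within 50 bases left 2 of the 5 Zfp42 peaks, which follows from their spacing. No paired analysis was possible because the list has no values per library, and no replicate could be left out for the same reason. What depth limits could not be measured.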

Other observations

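Identical fold values recur in the list, and the 5 transcripts differed in how often theirs did. The 5 most frequent values accounted for 27.4% of all 47777 peaks and for 0 of the 49 described here. For each peak, the peaks of the list that carried its exact deposited value were counted, itself included. The median of this number was 352 over all peaks, against 8 over the 49. A value found only once in the list was carried by 2.95% of all peaks, by 8 of 15 Socs3 peaks and by 5 of 5 Zfp42 peaks, but by none on Klf4, Tfcp2l1 or Esrrb. The most widely shared values among the 49 were a log2 fold of 1.46 on Klf4 (1049 peaks of the list), 1.41 on Esrrb (747 peaks) and 1.09 on Tfcp2l1 (698 peaks). The strong Socs3 peak with a log2 fold of 2.94 had a value carried by 142 peaks. As the genes were chosen with their folds in view, and peaks of 1 transcript are not replicates, these shares are a description only. What sets these recurrences was not tested here.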
